A study of Mus musculus with 768 samples.

Results

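The SLAM family receptors and their SAP adaptors were followed by transcript in single NK cells from mouse tumors: Cd244, Slamf6, Slamf7, Cd48, Ly9 and Cd84 as receptors, and Sh2d1a (SAP) and Sh2d1b1 (EAT-2) as adaptors. These 8 genes were chosen by symbol, from 24490 gene entries in the deposited tables, and each stood on a single entry. The cells were sorted as NK1.1+ and CD3- from MTAP1A tumors, grown from an MHC-I low fibrosarcoma line that lacks Tap1. WT cells filled 1 plate of wells and PD-1-/- cells another, and the tumors of 3 male mice were pooled for each plate, from mice on a C57BL/6 background that were 8 to 12 weeks old. In the PD-1-/- allele exons 3 and 4 of Pdcd1 are deleted, in every cell of the mouse and without a Cre. A genotype was therefore a single pool, processed on its own plate. Effects of genotype and of plate cannot be told apart, the mouse a cell came from is not known, and no test between the genotypes and no p-value is given. Of 768 wells, 726 had 1000 to 3500 detected genes and were kept, 360 of them WT and the remainder PD-1-/-. A transcript counted as detected at an RPKM above 0, where RPKM is the number of reads scaled to the length of the gene and to the mapped reads of the cell. All 8 members were detected in at least 3 wells, as were 14761 entries in all.

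SLAM receptors are immunoglobulin-like receptors of blood cells, and most of them bind a copy of themselves on the neighboring cell. Cd244 (2B4) is the exception and binds Cd48, a receptor held in the membrane by a lipid anchor and without a signaling tail. The tails of the other receptors carry switch motifs, short stretches around a tyrosine which, once phosphorylated, are bound by the adaptors. SAP brings the kinase Fyn to the receptor, EAT-2 couples it to phospholipase C, and where neither adaptor is bound phosphatases such as SHP-1 and SHIP-1 can dock instead, so that the same receptor can activate or inhibit an NK cell.

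The switch motifs are shown because they are the sites where receptors and adaptors meet. In the longest coding sequence of each gene in GENCODE vM21 (GRCm38), in-frame stretches of 18 bases were searched that code for threonine, any residue, tyrosine, any 2 residues and then valine or isoleucine. Cd244 held 4 of them, Slamf6, Ly9 and Cd84 held 2 each and Slamf7 held 1. The tyrosine codon is in capitals.
Cd244, motif 1: acaataTATgaatatgtc
Cd244, motif 2: accatgTACtctatgata
Cd244, motif 3: acagtaTATtcagtagtc
Cd244, motif 4: accgtgTACgaggaggtt
Slamf6, motif 1: actgtgTATgcacaagtc
Slamf6, motif 2: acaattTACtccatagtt
Slamf7, motif 1: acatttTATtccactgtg
Ly9, motif 1: actccaTATgataaagtg
Ly9, motif 2: acaatcTACtgctctgtg
Cd84, motif 1: acagtaTATgctgtagtt
Cd84, motif 2: accattTATtcctcagtg

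All these stretches are exonic and coding. The first 3 of Cd244, on the plus strand, lie in exons 5, 6 and 7 of 9, at chr1:171577838-171577855, chr1:171579144-171579161 and chr1:171580788-171580805, and the fourth spans the junction of exons 8 and 9 between chr1:171581685-171582806. Those of Slamf6 lie in exons 6 and 7 of 9, at chr1:171939437-171939454 and chr1:171941664-171941681 on the plus strand. Those of Cd84 lie in exons 5 and 6 of 7, at chr1:171884605-171884622 and chr1:171885601-171885618 on the plus strand. On the minus strand, the stretch of Slamf7 lies in its last exon, 6 of 6, at chr1:171636327-171636344, and those of Ly9 in exons 8 and 9 of 10, at chr1:171593912-171593929 and chr1:171593438-171593455. Cd48, which has no tail, held 1 match in exon 2 of 4, upstream of the exons (5 and later) where the other receptors hold theirs. Neither adaptor held a match. The pattern is short, and 7.89% of 21794 protein-coding genes held at least 1 match while 0.601% held at least 2, so a match is a description and not a proven docking site.

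The 6 receptor genes stand side by side on mouse chromosome 1, from the start of Cd244 at 171558718 to the end of Slamf6 at 171948958 in RefSeq (GRCm38.p6), Sh2d1b1 lies on the same chromosome at 170277318 to 170286769, and Sh2d1a lies on the X chromosome. The submitters' notes name both mm9 and mm10, and the deposited tables hold symbols without coordinates. In GENCODE the gene model of Cd244 runs to 171609746 and covers Ly9 on the opposite strand, while in RefSeq the models do not overlap. SMART-SEQ2 libraries do not mark the strand, so reads from such a shared stretch cannot be assigned to Cd244 or Ly9. Sh2d1b1 shares 15.4% of its 40-base stretches with its neighbor copy Sh2d1b2, and reads from those stretches are equally uncertain.

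Pdcd1 itself was detected in 9 WT cells (2.5%) and in 47 PD-1-/- cells (12.8%), with mean levels of 14.4 and 13.9 RPKM, so that reads of this locus were counted in both genotypes. Each of the 8 NK-like markers was present in 55.2% or more of the cells of either genotype. Of the T-like list, 3 of 10 genes in WT cells and 4 of 10 in PD-1-/- cells passed 5% of cells, led by Cd3d. Cd68 at 6.39% of WT cells was the highest of the myeloid-like list, whose mean summed level was 40.1 RPKM in WT and 15.9 RPKM in PD-1-/- cells. No gene of the B-like, neutrophil-like and fibrosarcoma-like lists passed 5%. The kept cells had a median of 2264.5 (WT) and 2262.5 (PD-1-/-) detected genes. Whole reads, recovered for 9341 genes from the equal steps in which RPKM rises, had a median of 273334 per WT cell (range 1161 to 433282) and 287009 per PD-1-/- cell (range 1667 to 479029).

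Cd48 was the most widespread of the 8 transcripts and Slamf6 the rarest. Cd48 was detected in 67.2% of WT cells (95% interval 62.1 to 72.1) and 71.04% of PD-1-/- cells (66.1 to 75.6). Slamf6 was detected in 31 WT cells (8.61%, 5.93 to 12) and 26 PD-1-/- cells (7.10%, 4.69 to 10.2). These are exact Clopper-Pearson intervals, here and for all shares, and they cover counting error only, since reads without molecular identifiers and cells of a pool are not independent. In neither genotype did the interval of Cd48 overlap that of Slamf6.

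The other receptors lay between them. The share of Cd244 was 57.2% (51.9 to 62.4) in WT and 60.7% (55.4 to 65.7) in PD-1-/-. For Slamf7, known for recruiting EAT-2, it was 45.8% (40.6 to 51.1) and 48.6% (43.4 to 53.9). For Ly9 it was 43.3% (38.1 to 48.6) and 42.6% (37.5 to 47.9), and for Cd84 51.7% (46.4 to 56.9) and 44.3% (39.1 to 49.5). The intervals of Slamf7, Ly9 and Cd84 overlapped one another in both genotypes. These receptors were scored in the same cells, so overlap of separate intervals does not decide their order, which was not tested.

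Of the adaptors, Sh2d1a was the more widespread. Its share was 58.1% (52.8 to 63.2) in WT and 48.9% (43.7 to 54.2) in PD-1-/-, against 36.1% (31.1 to 41.3) and 29.5% (24.9 to 34.5) for Sh2d1b1. The interval of Sh2d1a lay above that of Sh2d1b1 in both genotypes.

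**Figure D1:**
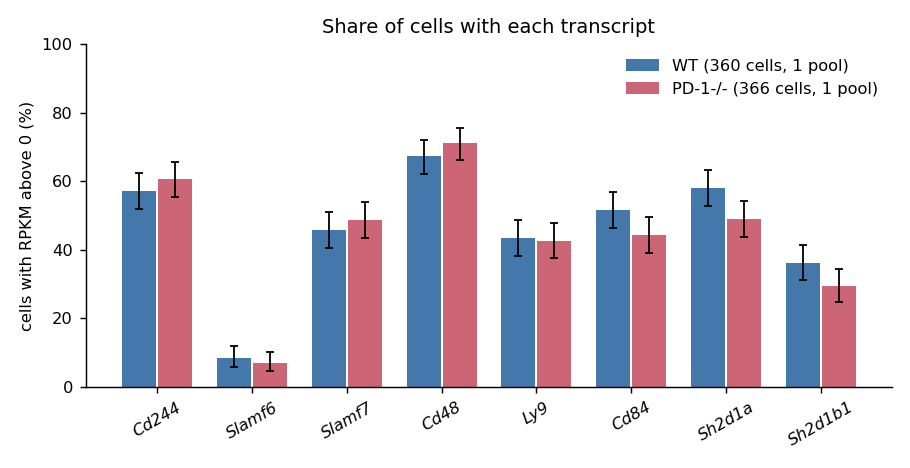
Share of kept cells with an RPKM above 0 (vertical axis, percent) for each of the 8 members (horizontal axis), WT cells in blue and PD-1-/- cells in red, with exact 95% intervals for counting error. Cd48 was highest at 67.2% and 71.04% and Slamf6 lowest at 8.61% and 7.10%, and the intervals of the genotypes overlapped for every member.

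Per cell the values were widely spread, and every member had cells at 0 in both genotypes. Cd48 had a median of 296.5 RPKM and a highest value of 2914 RPKM over all kept WT cells, and 348.01 and 3236 RPKM in PD-1-/- cells. For Sh2d1a the median was 149.99 and the highest value 2351 RPKM in WT cells, against a median of 0 and a highest value of 1934 RPKM in PD-1-/- cells. For Cd244 the median was 11.6 and the highest value 721 RPKM in WT cells, and 61.3 and 1089 RPKM in PD-1-/- cells. Cells at 0 and cells at high levels were thus present for each of these genes in both genotypes, and the ranges overlapped throughout. Cd84 had a median of 0.878 RPKM in WT and of 0 in PD-1-/- cells, and Slamf6, Slamf7, Ly9 and Sh2d1b1 had a median of 0 in both.

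Among the cells where a transcript was detected, its median level differed by less than 1.5-fold between the genotypes. RPKM is scaled to gene length, so that these levels can be set side by side between genes. The median of the positive cells was 533 (WT) and 548 RPKM (PD-1-/-) for Cd48, 361.1 and 362.8 RPKM for Sh2d1a, 263.98 and 247.5 RPKM for Ly9, 182.96 and 168.9 RPKM for Sh2d1b1, 175.3 and 181.7 RPKM for Cd244, 140.7 and 174.8 RPKM for Slamf6, 136.1 and 110.7 RPKM for Cd84, and 101.3 and 103.9 RPKM for Slamf7. Slamf6 was therefore rare but, where present, in the range of Cd244. The quartiles enclose the middle portion of the positive cells. For Sh2d1a they ran from 218.99 to 584 RPKM in WT and from 203.1 to 617 RPKM in PD-1-/- cells. Lower quartiles were further apart for Cd84 (46.03 in WT and 17.5 RPKM in PD-1-/-), Ly9 (68.4 and 43.97) and Slamf6 (58.9 and 36.7). For Cd244, Slamf7 and Cd48 the lower quartile was higher in PD-1-/- cells. The share of all genes whose positive medians differ by less than 1.5-fold was not computed.

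Most detections did not rest on single reads. Sh2d1a had a median of 88 recovered reads in the positive WT cells and 89 in the positive PD-1-/- cells, and 4 positive cells of each genotype rested on 1 read. Sh2d1b1 had medians of 69.5 and 87.5 reads, and 5 positive cells of each genotype rested on 1 read. For Slamf6 the medians were 79 and 128.5 reads, and 2 of its 31 WT and 4 of its 26 PD-1-/- cells rested on 1 read. No reads could be recovered for Ly9 and Cd84, for which no single step that was tried made enough of the low values whole.

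**Figure D2:**
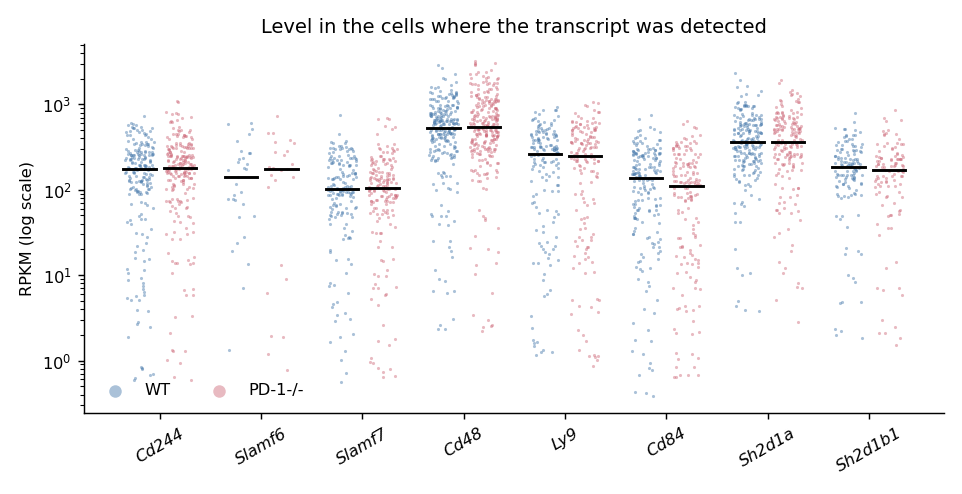
RPKM on a log scale (vertical axis) in the cells where each member was detected, WT in blue and PD-1-/- in red, with 1 point per cell and a bar at the median. The medians of the genotypes lay close together for each member, from 101.3 and 103.9 RPKM for Slamf7 to 533 and 548 RPKM for Cd48.

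The genotype comparison asks whether loss of PD-1 goes with another SLAM repertoire in tumor NK cells. No member passed a 1.5-fold difference in mean RPKM between the genotypes, a rule of size that 11% of the 12030 genes averaging 1 RPKM or more passed upward and 14% passed downward. The ratio was above 1 for 4 members and below 1 for 4. The median log2 ratio of the 8 members was -0.06, beside -0.03 for all those genes.

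Cd48 had a mean of 416 RPKM in WT and 520 RPKM in PD-1-/- cells, a log2 ratio (PD-1-/- over WT, 1 RPKM added to each mean) of 0.32. For Cd244, 110.4 and 133.2 RPKM gave 0.27. The lipid-anchored ligand and its receptor were the members with the highest ratios. Slamf7 (60.4 and 64.1 RPKM) and Ly9 (120.1 and 121.8 RPKM) had log2 ratios of 0.08 and 0.02. For Slamf6, 15.8 and 14.3 RPKM gave -0.14.

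The lowest ratios belonged to Cd84 and the adaptors. Cd84 had means of 81.8 RPKM in WT and 60.4 RPKM in PD-1-/- cells, a log2 ratio of -0.43. For Sh2d1b1, 72.9 and 56.98 RPKM gave -0.35, and for Sh2d1a, 258.7 and 219.7 RPKM gave -0.23. In plate rows A to H alone, Slamf6, Cd84 and Sh2d1b1 passed 1.5-fold downward, with log2 ratios of -0.75, -0.59 and -0.73, as 25.3% of 12398 genes did in those rows. No member did so in rows I to P, where 14.3% of 11856 genes did. There Slamf6 stood at 0.27 and Sh2d1b1 at 0.03, so that the direction of both turned between the parts of the plates. From rows A to H to rows I to P, Sh2d1a went from -0.49 to 0.0044, Slamf7 from 0.19 to -0.02 and Ly9 from 0.07 to -0.03. Cd244, Cd48 and Cd84 kept their direction. Without rows A and B the log2 ratio of Slamf6 was 0.16.

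The shares point to the same 3 genes. The difference in share, PD-1-/- minus WT, was -9.15 points for Sh2d1a, -7.404 points for Cd84 and -6.60 points for Sh2d1b1. No member differed by 10 points or more, as 0.454% of 8142 genes found in 5 to 95% of the cells of both genotypes did downward and 0.479% did upward. The values were uneven over the plates. In rows A to H the share of Sh2d1b1 was 38.8% in WT and 25.5% in PD-1-/-, but in rows I to P it was 33.5% in both. Sh2d1a stood at 57.9% and 45.7% in rows A to H and at 58.2% and 52.2% in rows I to P. Cd84 was low in WT rows A and B, in 9 of 38 cells (23.7%), against 54.97% in WT rows C to P, while PD-1-/- cells stood at 46.7% and 43.9%. Without rows A and B, the difference for Cd84 was therefore -11.04 points. Between rows A to H and rows I to P, the difference in share changed sign for Cd48 (-2.22 and 9.89 points) and Ly9 (4.62 and -6.04 points). It also did so for Slamf7 (7.29 and -1.65), Cd244 (7.52 and -0.549) and Slamf6 (-4.66 and 1.65). The part of plate position in these differences was not tested.

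To set the genotypes side by side at the same total of recovered reads, each cell was thinned to 100000 of them, which does not match the number of detected genes. After thinning, Sh2d1a stood at 58.6% in WT and 47.9% in PD-1-/-, Sh2d1b1 at 36.1% and 29.1%, Cd244 at 56.8% and 60.3%, and Cd48 at 68% and 71.3%. The difference of Sh2d1a, PD-1-/- minus WT, was then -10.6 points, past the 10 points that it missed without thinning. The share of all genes past 10 points after thinning was not computed, so passing the rule here is no result about Sh2d1a. A total of 31 WT and 16 PD-1-/- cells were too shallow to enter. The thinned shares thus also rest on fewer cells, and the parts of thinning and of the cells left out were not separated.

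Counted per cell, the receptors were close in number between the genotypes. A mean of 2.74 of the 6 receptors was detected per cell in both genotypes, with a median of 3. None was detected in 18 WT cells (5%, 2.99 to 7.79) and 10 PD-1-/- cells (2.73%, 1.32 to 4.97), and all 6 were found in 2 cells of each genotype. Cells without any receptor had medians of 1844.5 and 1824 detected genes, and cells with 5 receptors had medians of 2488.5 and 2717, so that the number of receptors went along with the number of detected genes.

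Both adaptors were detected in 80 WT cells (22.2%, 18.03 to 26.9) and 61 PD-1-/- cells (16.7%, 13 to 20.9). Sh2d1a alone made up 35.8% (30.9 to 41.03) and 32.2% (27.5 to 37.3), and Sh2d1b1 alone 13.9% (10.5 to 17.9) and 12.8% (9.59 to 16.7). Cells with neither adaptor came to 28.1% (23.5 to 33) in WT and 38.3% (33.2 to 43.4) in PD-1-/-. This was the only one of the 4 classes whose intervals did not overlap between the genotypes, by a narrow margin. These cells had the lowest medians of detected genes, 2077 in WT and 1986 in PD-1-/- cells. Cells with both adaptors had medians of 2467 and 2489. The class with neither adaptor was not split by plate row, and no background from other pairs of genes was computed. The adaptors' own differences in share were uneven over the plates. For Sh2d1b1, PD-1-/- minus WT was -13.2 points (rows A to H) and 0 points (rows I to P). For Sh2d1a it was -12.2 and -6.04 points. The parts of depth per cell and of plate position in this class were not tested.

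**Figure D3:**
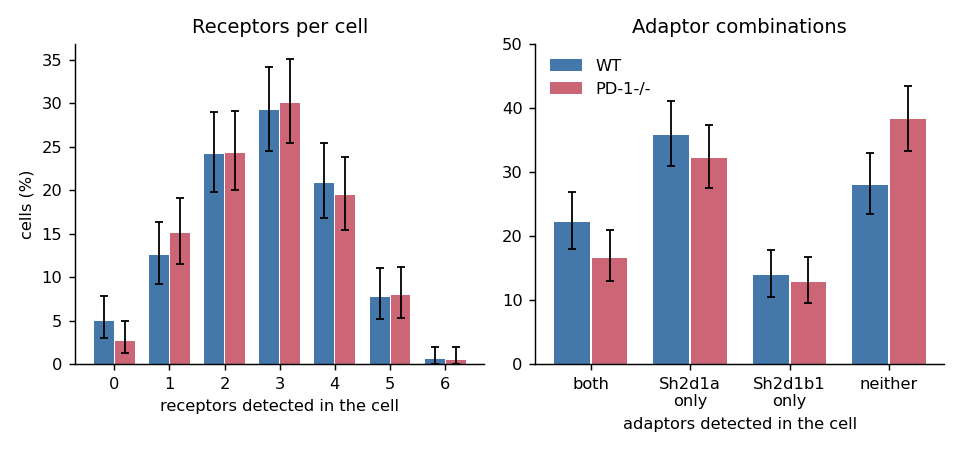
Percent of kept cells (vertical axes) by the number of SLAM receptors detected (left) and by the adaptors detected (right), WT in blue and PD-1-/- in red, with exact 95% intervals. The receptor counts follow each other, while cells with neither adaptor made up 28.1% of WT and 38.3% of PD-1-/- cells. This class was not split by plate row.

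Any of the 6 receptors but Cd48 can dock an adaptor. Cells with such a receptor and without a detected adaptor came to 24.4% (20.1 to 29.2) in WT and 33.6% (28.8 to 38.7) in PD-1-/-. They were 87.1% of the WT and 87.9% of the PD-1-/- cells with neither adaptor, so this is not a separate difference. Of the cells with Cd244, 49 in WT (23.8%, 18.1 to 30.2) and 73 in PD-1-/- (32.9%, 26.7 to 39.5) had no detected adaptor, and 51 (24.8%) and 48 (21.6%) had both. For both of these classes without an adaptor the intervals of the genotypes overlapped. Neither class was split by plate row, and no background from other genes was computed. A transcript that was not detected may still be present below the reach of the assay.

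Receptors and adaptors were then compared cell by cell, within each genotype, by the odds ratio of detection. An odds ratio above 1 means that a receptor was found more often in cells with the adaptor than in cells without it. Cells with either adaptor had a higher median of detected genes than cells without it. The median gene had an odds ratio of 1.24 (WT) and 1.22 (PD-1-/-) with Sh2d1a, and of 1.18 and 1.29 with Sh2d1b1. Values are read against this background. Of the 12 receptor-adaptor pairs, 3 had an odds ratio of at least 1.5 in both genotypes. Of 8141 genes, 7.15% passed this with Sh2d1a and 7.55% with Sh2d1b1.

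Cd84 and Slamf6 were the receptors that passed it with Sh2d1a. Of the Cd84 positive cells 66.1% (58.8 to 72.9) had Sh2d1a in WT and 59.3% (51.3 to 66.9) in PD-1-/-, against 49.4% (41.8 to 57.1) and 40.7% (33.9 to 47.8) of the cells without Cd84. The odds ratios were 1.99 and 2.11, and they were 1.80 and 1.85 within tertiles of detected genes. For Slamf6 the odds ratios were 1.54 and 2.02, from 21 of 31 and 17 of 26 Slamf6 positive cells with Sh2d1a (67.7%, 48.6 to 83.3, and 65.4%, 44.3 to 82.8). The intervals of the Slamf6 shares are wide and include those of the cells without Slamf6, at 57.1% and 47.6%. Slamf7 had odds ratios of 1.84 in WT and 1.09 in PD-1-/- cells, and Cd244 of 1.28 in both. Ly9 stood at 0.97 and 1.35 and Cd48 at 0.88 and 1.10.

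With Sh2d1b1, only Cd244 passed among the 6 receptors. Sh2d1b1 was present in 83 Cd244 positive cells of each genotype, which is 40.3% (33.5 to 47.3) of them in WT and 37.4% (31 to 44.1) in PD-1-/-. Of the cells without Cd244, 47 (30.5%, 23.4 to 38.4) and 25 (17.4%, 11.6 to 24.6) had Sh2d1b1. The odds ratios were 1.53 and 2.81, and within tertiles of detected genes 1.32 and 2.13, which no longer passes in WT. Cd84 stood at 1.61 and 1.01, Cd48 at 1.22 and 1.73, Slamf7 at 1.43 and 1.33, and Ly9 at 1.03 and 1.37.

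Slamf6 and Sh2d1b1 were the only pair found together less often, with an odds ratio of at most 0.667 in both genotypes. Sh2d1b1 was detected in 7 of 31 Slamf6 positive WT cells (22.6%, 9.59 to 41.1) and in 4 of 26 Slamf6 positive PD-1-/- cells (15.4%, 4.36 to 34.9), against 37.4% (32.1 to 42.9) and 30.6% (25.7 to 35.8) of the other cells. The odds ratios were 0.51 and 0.45. Of 8141 genes, 0.467% stood as low with Sh2d1b1 in both genotypes and 0.332% with Sh2d1a. The pair rests on few cells with both transcripts, and the intervals of the shares overlap. Slamf6 had odds ratios above 1.5 with Sh2d1a and below 0.667 with Sh2d1b1, and both calls rest on the choice of cells. Over all wells the odds ratio with Sh2d1a was 1.496 in WT, just under the rule. Without cells with CD3 transcripts the odds ratios with Sh2d1b1 were 0.78 and 0.92, and no pair stood at or below 0.667 in both genotypes.

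The adaptors themselves had odds ratios with each other of 1.25 in WT and 1.54 in PD-1-/- cells, and of 1.09 and 1.16 within tertiles of detected genes. Among the receptors themselves, 2 of 15 pairs had an odds ratio of at least 1.5 in both genotypes, and both include Cd244, with which 7.38% of 8141 genes stood as high. Cd244 and its ligand Cd48 were found together in 41.7% of WT cells and 45.4% of PD-1-/- cells, with odds ratios of 1.80 and 1.57, and of 1.56 and 1.23 within tertiles. Cd244 and Slamf7 had odds ratios of 1.87 and 1.51, and of 1.53 and 1.23 within tertiles, so that neither pair passed within tertiles in PD-1-/- cells.

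**Figure D4:**
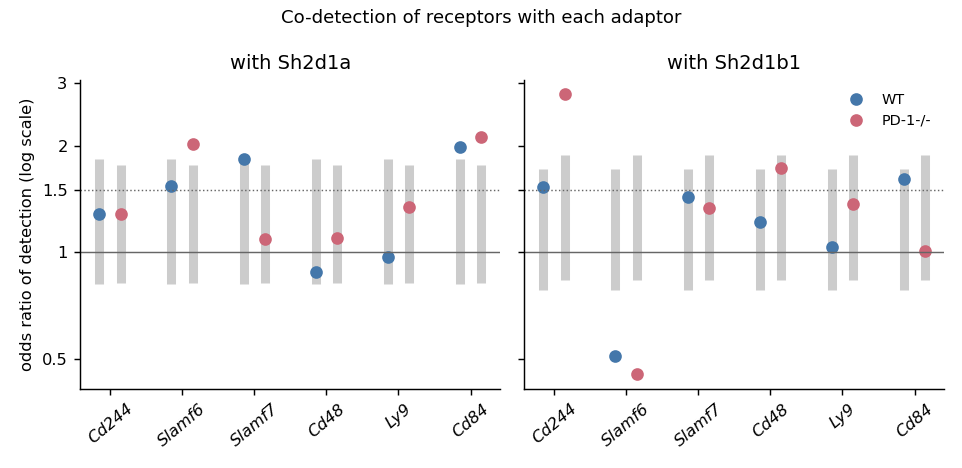
Odds ratio of detection (vertical axis, log scale) of each receptor with Sh2d1a (left) and Sh2d1b1 (right), WT in blue and PD-1-/- in red, where gray bars span the 10th to 90th percentile of all genes compared, the solid line marks 1 and the dotted line 1.5. Cd84 with Sh2d1a (1.99 and 2.11) lay above the gray bars and Slamf6 with Sh2d1b1 (0.51 and 0.45) below them in both genotypes.

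Classes of NK cells were made by single transcripts: Eomes, the transcription factor of conventional NK cells, Cxcr6 and Itga1, receptors linked with tissue residency, S1pr5, a receptor for exit into the blood, and Mki67, found in dividing cells. Of the 8 members, Sh2d1a alone differed by at least 10 points between cells with and without Eomes in both genotypes. In WT its share was 65.02% (58.4 to 71.3) with Eomes and 46.7% (38.1 to 55.4) without. In PD-1-/- it was 59.4% (52.3 to 66.2) with Eomes and 35.98% (28.6 to 43.8) without. The intervals did not overlap in either genotype. Mean Sh2d1a levels with and without Eomes were 303.02 and 186.5 RPKM in WT and 276.3 and 149.96 RPKM in PD-1-/- cells. Of 8141 genes, 0.565% were as much more frequent in cells with Eomes. Sh2d1b1 differed by 5.27 and 4.85 points in the same direction. In WT, cells with and without Eomes had medians of 2278 and 2246 detected genes, in PD-1-/- 2356.5 and 2167.5.

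The share of cells with Eomes was 61.9% in WT and 55.2% in PD-1-/-, so the classes were not of the same size in the genotypes. Within cells with Eomes, the difference of Sh2d1a between the genotypes, PD-1-/- minus WT, was -5.62 points, and within cells without Eomes it was -10.7 points. The share of Sh2d1a was lower in PD-1-/- cells in both classes, and the intervals of the genotypes overlapped in each. The part of class size in the genotype difference was not tested.

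With Cxcr6, Sh2d1a was the one member that differed by 10 points or more in both genotypes, and it was lower. Sh2d1a was present in 13 of the 28 WT cells that had Cxcr6 (46.4%, 27.5 to 66.1) and in 23 of the 77 such PD-1-/- cells (29.9%, 19.97 to 41.4). Its share without Cxcr6 was 59.04% (53.5 to 64.4) and 53.98% (48.04 to 59.8). The intervals overlapped in WT and not in PD-1-/- cells. Of 8141 genes, 0.848% were as much less frequent in both genotypes. Sh2d1b1 was present in 2 of the 28 (7.14%, 0.877 to 23.5) and 17 of the 77 cells (22.1%, 13.4 to 32.98), against 38.6% (33.3 to 44.02) and 31.5% (26.2 to 37.2) without Cxcr6. The difference was -31.4 points in WT and -9.41 points in PD-1-/- cells, short of the 10 points in the latter, where the intervals overlapped. Cells with Cxcr6 made up 7.78% in WT and 21.04% in PD-1-/-. Among the cells without Cxcr6 the genotypes, PD-1-/- minus WT, differed by -5.06 points for Sh2d1a and -7.07 points for Sh2d1b1. Among the cells with Cxcr6 they differed by -16.6 points for Sh2d1a and 14.9 points for Sh2d1b1. The direction of Sh2d1b1 thus turned between the classes, and the intervals of the genotypes overlapped in the cells with Cxcr6. With only 28 WT cells in the class, the WT values are coarse. Without plate rows A and B the difference of Sh2d1a in WT was -9.74 points.

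Cd244 was the one receptor that met the rule in a class, with 66.7% (51.6 to 79.6) of WT cells with Itga1 against 55.8% (50.1 to 61.4) without, and 68.9% (58.3 to 78.2) against 57.97% (51.9 to 63.9) in PD-1-/- cells. Here 2.4% of 8141 genes were as much more frequent, the intervals overlapped, and cells with Itga1 had more detected genes (2595.5 against 2244 in WT). Averaged over tertiles of detected genes the differences were 5.94 and 7.57 points, below the rule. No member differed by 10 points in the same direction in both genotypes with S1pr5 or Mki67, classes for which the share of all genes was not computed. The Mki67 class held only 17 WT and 31 PD-1-/- cells.

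**Figure D5:**
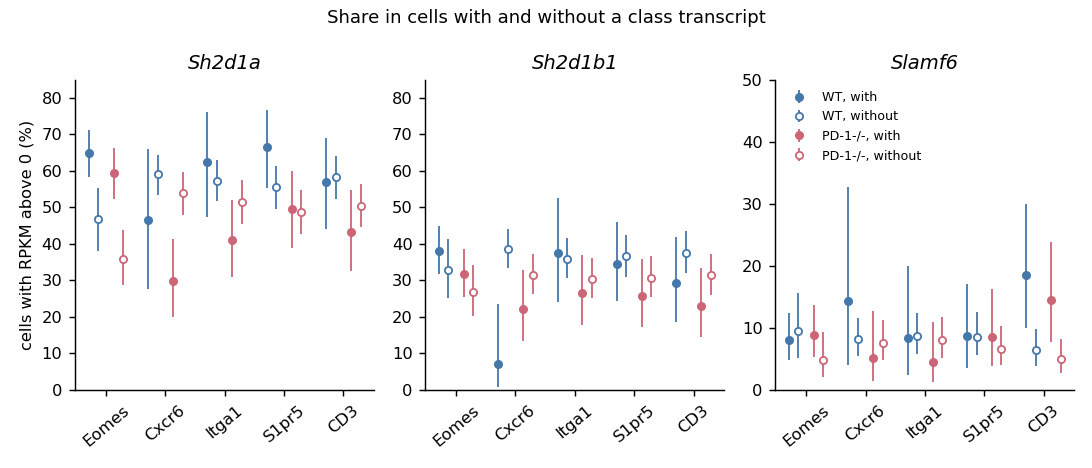
Share of cells with Sh2d1a (left), Sh2d1b1 (middle) and Slamf6 (right, with its own axis) in cells with (filled) and without (open) Eomes, Cxcr6, Itga1, S1pr5 or CD3 transcripts, WT in blue and PD-1-/- in red, with exact 95% intervals. Sh2d1a stood at 65.02% and 59.4% in cells with Eomes and at 46.7% and 35.98% in cells without.

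Although the sort excluded CD3+ cells, 65 WT and 83 PD-1-/- cells had a transcript of Cd3d, Cd3e or Cd3g. No member differed by 10 points in the same direction in both genotypes between these cells and the others, as 0.395% of 14168 genes did upward and 0.233% did downward (0.651% and 0.393% of the 8139 genes found in 5 to 95% of cells). Slamf6, a receptor that T cells also carry, came closest. It was found in 12 of 65 WT cells with CD3 transcripts (18.5%, 9.92 to 30.03) against 19 without (6.44%, 3.92 to 9.88), and in 12 of 83 (14.5%, 7.70 to 23.9) against 14 without (4.95%, 2.73 to 8.16) in PD-1-/- cells, differences of 12.02 and 9.51 points. Slamf7 differed by 13.5 points in WT and 4.10 points in PD-1-/- cells.

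Cells with at least 2 of the CD3 genes, 31 WT and 45 PD-1-/- cells, were then set beside the cells with none. Cd244 was found in 38.7% (21.9 to 57.8) and 48.9% (33.7 to 64.2) of them, against 58.6% and 62.5% of the cells without CD3 transcripts. Slamf7 was found in 58.1% (39.1 to 75.5) and 57.8% (42.2 to 72.3), against 43.4% and 47.7%. For Slamf6 the shares were 32.3% (16.7 to 51.4) and 11.1% (3.71 to 24.1). Cd244 (lower) and Slamf7 (higher) passed 10 points in both genotypes, as 1.66% of 8139 genes did downward and 1.89% did upward. Other members differed by as much in 1 genotype. The differences in WT and PD-1-/- cells were -24.5 and -4.17 points for Cd84, -21.5 and -9.23 points for Sh2d1b1, -3.47 and -17.2 points for Sh2d1a, 25.8 and 6.16 points for Slamf6, and 13.5 and 7.90 points for Ly9. For Slamf6 in PD-1-/- cells this was less than with any CD3 transcript, and Cd48 differed by 5.54 and 1.25 points. Whether these cells are T cells or NK cells with CD3 transcripts was not tested.

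The other genes of the pathway show what stands behind the adaptors. Of the list of 15 genes, the receptors Slamf1, Slamf8 and Slamf9 and the adaptor copy Sh2d1b2 stayed below 2% of the cells of each genotype. Sh2d1b2, the closest relative of Sh2d1b1, was found in 5 WT and 6 PD-1-/- cells. Slamf8 was found in 2 WT cells and in 0 PD-1-/- cells, which allows a share of up to 0.820% by the limit of 3 cells of the total, used here for a count of 0 in place of the exact interval.

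Kinases and phosphatases that act at switch motifs differed widely in share. Lck, a kinase of the Src family, had shares of 91.1% (87.7 to 93.8) in WT and 89.9% (86.3 to 92.8) in PD-1-/-, at mean levels of 686 and 684 RPKM. Fyn, the kinase that SAP binds, was present in 72.8% and 69.9% at mean levels of 72.02 and 52.6 RPKM. Inpp5d (SHIP-1) stood at 66.7% and 66.1%, Csk at 57.8% and 59.02%, Ptpn6 (SHP-1) at 57.2% and 55.7%, and Ptpn11 (SHP-2) at 20% and 18.3%. Of the genes further down, Vav1 stood at 54.7% and 59.02%, Prkcq at 46.4% and 47.5%, Lat at 37.2% and 39.3%, and Plcg2 at 41.4% and 38.3% of cells. Fyn, Lck and Inpp5d stood above both adaptors in each genotype, and Ptpn11 below both. In WT, however, the interval of Inpp5d (61.5 to 71.5) overlapped that of Sh2d1a (52.8 to 63.2).

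Of the 13 pathway genes averaging 1 RPKM or more, 1 passed 1.5-fold upward and 1 downward, beside 11% and 14% of all genes, and the median log2 ratio was -0.02. Plcg1 passed upward, in 7 WT and 18 PD-1-/- cells, at mean levels of 1.62 and 5.52 RPKM. Slamf9 passed downward, in 4 WT cells and 1 PD-1-/- cell, at mean levels of 2.20 and 0.04 RPKM. Both rest on few cells, and neither passed with 10 RPKM added to each mean.

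Likeness to other genes was low in value for every member. By the smaller of the Spearman correlations of log2(RPKM + 1) over the kept cells of each genotype, among 3748 genes present in 20% or more of both genotypes, only Sh2d1a and Cd244 had a partner at 0.2 or above. These were Ccr2, a chemokine receptor, with Sh2d1a (0.22 and 0.26) and Actb, the actin gene, with Cd244 (0.22 and 0.21). The share of all genes with a partner at 0.2 or above was not computed, so this count is no result about the members. All points of such a correlation share libraries and depth, and the values are given as a description.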

How the data were processed

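Per the labels and the methods of the study, single NK cells were sorted into 384-well plates, and SMART-SEQ2 libraries were made without molecular identifiers. The authors deposited RPKM per gene and well. The submitters' notes name TopHat, Cufflinks, mm9 and mm10 without their roles, and the annotation is not given in the sources used here. Groups came from the labels. The members, lists and rules were chosen with earlier results of these data known. Of 768 wells, 726 had 1000 to 3500 detected genes and were kept. No 2 wells held identical values. No further scaling was applied. Shares carry exact 95% intervals, log2 ratios are of mean RPKM with a pseudocount of 1, and odds ratios have 0.5 added to each count. Pairs, ratios and classes were called by size only (1.5-fold, an odds ratio of 1.5, or 10 points). Reads were recovered from RPKM steps for depth and thinning, and of 665276 recovered values under 60 reads 99.8% came out whole (relative tolerance 0.0003). Read recovery, log2 ratios, odds ratios, share differences and thinning were tested on simulated data. The exact intervals, the correlations, the shares averaged over tertiles and the motif search were not. Named genes were the members, the pathway, marker and class lists, Pdcd1, and likeness partners at 0.2 or above. Sequences and exons came from GENCODE vM21. Python 3.11.15, numpy 2.4.6, pandas 2.3.3, scipy 1.17.1 and matplotlib 3.10.9 were used. Alternatives changed the filter on cells, the detection limit, the pseudocount, scaling, plate rows, CD3 transcripts and depth.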

Additional observations from a re-analysis of the deposited data

Results flagged for a closer look

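The 30 wells with more than 3500 detected genes were left out of all comparisons, and in them 4 members had shares whose exact 95% interval lay above the share of the kept cells of both genotypes together. The same held for 51.4% of 8142 genes, so that 4 of 8 is close to the background of such wells. Cd244 was detected in 27 of 30 such wells (90%, 73.5 to 97.9) against 58.95% of the kept cells. Slamf7 was detected in 25 of 30 (83.3%, 65.3 to 94.4) against 47.2%, Cd84 in 21 of 30 (70%, 50.6 to 85.3) against 47.9%, and Sh2d1b1 in 16 of 30 (53.3%, 34.3 to 71.7) against 32.8%. Slamf6 was detected in 3 of 30 (10%, 2.11 to 26.5) against 7.85%. The part of the number of detected genes, or of more than 1 cell in a well, in these shares was not tested.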

How the results depend on the processing

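No paired analysis was possible because each genotype is 1 pooled sample, whose wells carry no shared replicate. Members past 1.5-fold between the genotypes, 0 as reported, were 1 without cells with CD3 transcripts (Slamf6, log2 ratio -0.75), 3 in plate rows A to H and 2 by the mean of log2(RPKM + 1) per cell (Sh2d1a -0.82, Cd84 -0.68). Members differing by 10 points, 0 as reported, were 2 in rows A to H (Sh2d1a and Sh2d1b1), 1 without rows A and B (Cd84) and 1 after thinning (Sh2d1a, 10.6 points lower in PD-1-/-). Among these settings, the share of all genes past the rule was computed only for levels by plate rows, 25.3% downward in rows A to H. The other counts above are not set beside such a share and are no result about the members. The pairs at or below 0.667 were 0 instead of 1 without cells with CD3 transcripts. Members differing by 10 points with CD3 transcripts, 0 as reported, were 2 with at least 2 CD3 genes and 1 averaged over tertiles of detected genes (Cd244, lower). Of the 3 member and class pairs past 10 points in both genotypes, 1 (Sh2d1a with Eomes) passed without rows A and B. Sh2d1a with Cxcr6 passed in the other 4 alternatives, while Cd244 with Itga1 did not pass within tertiles or at 10 RPKM. In those 2 alternatives Sh2d1b1 with Cxcr6 and Cd244 with Mki67 (both lower) passed instead, and Sh2d1b1 with Cxcr6 also passed without cells with CD3 transcripts. With 10 RPKM added, 0 of 2 pathway genes passed 1.5-fold. These last alternatives, for classes and pathway, were chosen after seeing the data. No value called as reported changed direction in these alternatives. Of log2 ratios not called as reported, Slamf6 turned to 0.27 in rows I to P and 0.16 without rows A and B, and Sh2d1b1 to 0.03 in rows I to P, where Slamf7 (-0.02), Ly9 (-0.03) and Sh2d1a (0.0044) also changed sign, as Ly9 did by the mean of log2(RPKM + 1) per cell (-0.11). Slamf6 with Sh2d1a fell to an odds ratio of 1.496 in WT over all wells. With 1 pool per genotype no replicate error exists, thinning could not be run for Ly9 and Cd84, and rare transcripts such as Slamf6 leave wide intervals. The cause of each change was not tested.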
